A study of Mus musculus with 3 samples.

Results

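Dividing epidermal keratinocytes were the 262 cell barcodes, of 20728 kept and 20834 in the deposited tables of mouse whole skin, that held transcripts of both the cell cycle and the epidermal keratin programme. A barcode counted as a member when it had at least 2 counts of Mki67 plus Top2a, when Krt5, Krt14, Krt15, Krt1 and Krt10 together made at least 0.5% of its total, when 6 hair follicle genes (Krt25, Krt27, Krt71, Krt35, Krtap8-1 and Msx2) summed to fewer than 3 counts, and when Ptprc and Col1a2, genes of leukocytes and fibroblasts, were at 0. Barcodes were first required to have at least 200 detected genes and at most 20% of counts from mitochondrially encoded genes. The rule gave 85 cells under UV plus vitamin D, 106 under UV and 71 in the control.

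The skin came from C57BL/6 mice aged 9 weeks, dissociated whole and made into single-cell libraries with the Singleron GEXSCOPE kits. The first group was UV irradiated and given an agent that the labels call VD, taken to be vitamin D because the title names it. The second was UV irradiated and given saline, and the third was not irradiated and was given saline, so saline was shared by the UV and control groups. The form and dose of vitamin D, the UV dose, the body site, the time of sampling and the number of animals per library are not given in the sources used here. There was 1 library per group, so library and treatment cannot be told apart, no test across animals was possible, and every interval below is a 95% interval that covers counting error only.

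The epidermis is renewed from its innermost layer. Basal keratinocytes carry keratins 5, 14 and 15, are fixed to the basement membrane by integrins and collagen XVII, and hold most of the dividing cells. Cells that leave this layer stop dividing, switch to keratins 1 and 10, and later make the granular and cornified layers from loricrin, filaggrin and involucrin. Mki67 encodes the proliferation antigen Ki-67 and Top2a encodes topoisomerase II alpha, which untangles replicated DNA, and both are used to find cells in S phase, G2 and mitosis.

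The genes that define the rule were read as a description, with no test. Levels are given as CPM, a gene's share of all counts in the cells summed, in parts per 1e+06. Top2a was at 253 CPM in dividing cells of the UV plus vitamin D library, 282 in UV and 218 in control, and Mki67 at 129, 168 and 172 CPM in the same order of libraries. Krt14 was at 6701 CPM in UV plus vitamin D, 7119 in UV and 6064 in control dividing cells, and Krt5 at 4151, 3934 and 4139 CPM. In non-dividing keratinocytes, which met every other condition with 0 counts of Mki67 and Top2a, Krt14 was at 554 CPM in UV plus vitamin D, 1191 in UV and 866 in control. All 4 markers of the label were therefore present in the members. At the threshold, 24 members in UV plus vitamin D, 37 in UV and 32 in control held exactly 2 counts of Mki67 plus Top2a. Just outside it were 129, 95 and 171 keratinocytes with 1 count. The summed level of 42 genes of G2 and mitosis was 960 CPM in UV plus vitamin D, 1047 in UV and 627 in control cells with 2 counts. In cells with 1 count it was 500, 472 and 437 CPM.

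Pooled over layers, members were shallower in the median than other keratinocytes. Their median total was 7578 counts in UV plus vitamin D, 7366 in UV and 6638 in control, against 9649, 9435 and 7000 counts in non-dividing cells of the same libraries. Within each keratin class defined below, members were deeper. Basal-weighted members held 6849, 6532 and 6079 counts, against 4655, 4666 and 4228 in basal-weighted non-dividing cells. Suprabasal-weighted members held 17044, 13978 and 11822, against 10749, 11413 and 7952 in suprabasal-weighted non-dividing cells. The kept barcodes held 69126823, 50610389 and 79450666 counts, of which the members gave 903787, 963885 and 655662. Kept barcodes shared between libraries numbered 37 for UV plus vitamin D and UV, 66 for UV plus vitamin D and control, and 54 for UV and control, and no barcode was a member in more than 1 library.

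The UV library held a larger share of dividing cells among epidermal keratinocytes than the control library, and the share was smaller in UV plus vitamin D than in UV. Members made 1.72% of epidermal keratinocytes in UV plus vitamin D (85 of 4946, 95% interval 1.37 to 2.12%), 4.19% in UV (106 of 2529, 3.44 to 5.05%) and 0.947% in control (71 of 7500, 0.740 to 1.19%), with exact binomial intervals. Because a threshold of 2 counts is reached more easily in a deep cell, each barcode was also thinned to 2800 counts, a depth that every kept barcode reached. The expected shares were then 0.694% in UV plus vitamin D, 1.90% in UV and 0.388% in control. At that depth the UV share was 4.90-fold the control share (interval 3.03 to 8.06), the UV plus vitamin D share was 2.74-fold lower than the UV share (1.73 to 4.37), and the UV plus vitamin D share was 1.79-fold the control share (1.06 to 3.04). Those intervals did not include equality. With at least 4 counts over the G2 and mitosis list in place of Mki67 and Top2a, without thinning, the log2 ratio of shares was 0.57 for UV against control, against 2.29 here. For UV plus vitamin D against UV that definition reversed the direction, with 0.16 against -1.45 here, and 1296 of its 1454 cells in UV plus vitamin D, 522 of 666 in UV and 1194 of 1333 in control had no count of Mki67 or Top2a.

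The denominator bears on these shares, since the libraries differed in how many of their keratinocytes were basal. For each cell a basal keratin balance was taken as the percent of Krt5, Krt14 and Krt15 in the sum of all 5 keratins, and a cell at 50% or more was called basal-weighted. Basal-weighted cells made 14.8% of epidermal keratinocytes in UV plus vitamin D, 26.7% in UV and 20.3% in control. Among basal-weighted keratinocytes the dividing share was 9.15% in UV plus vitamin D (67 of 732), 12.4% in UV (84 of 675) and 3.49% in control (53 of 1520). After thinning it was 4.50%, 6.95% and 1.75%. The UV share among basal-weighted cells was 3.96-fold the control share after thinning (2.41 to 6.64), and the UV plus vitamin D share was 2.57-fold the control share (1.49 to 4.45). The UV plus vitamin D share was 1.54-fold lower than the UV share, with an interval of 0.968 to 2.49 that included equality. Thinned to 5000 counts instead, with shallower cells left out, it was 1.59-fold lower with an interval of 1.01 to 2.53 that did not. The smaller overall share in UV plus vitamin D than in UV thus stood beside a smaller basal-weighted fraction, and the part of that fraction in the difference was not tested. Of all kept barcodes, members made 1.37% in UV plus vitamin D, 1.94% in UV and 0.782% in control.

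**Figure D1:**
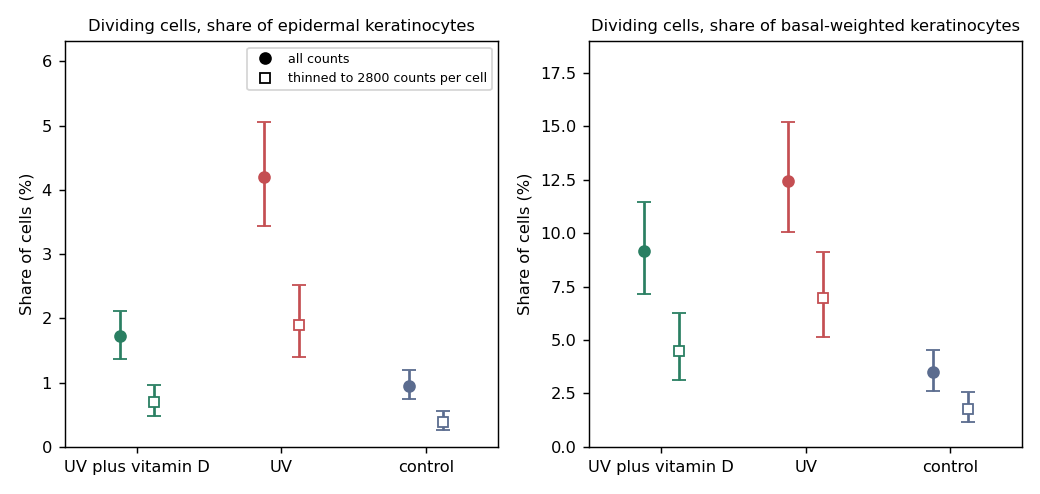
Share of dividing cells (%) among epidermal keratinocytes, left, and among basal-weighted keratinocytes, right, in the UV plus vitamin D, UV and control libraries. Filled circles are from all counts and open squares after thinning to 2800 counts per cell. Bars give 95% binomial intervals for counting error. They are exact for the circles and approximate for the squares, where the formula was applied to expected numbers of cells. UV is highest in both panels, and the UV plus vitamin D and UV intervals lie closer together among basal-weighted cells (9.15% and 12.4%) than among all epidermal keratinocytes (1.72% and 4.19%).

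Free transcripts can place counts of Mki67 and Top2a in cells that do not divide. Cells with at least 1% of their counts from Lor, the loricrin gene of the granular layer, served as keratinocytes that should lack both genes. None of 64 such cells in UV plus vitamin D, 1 of 43 in UV and none of 46 in control reached 2 counts, at median totals of 14526, 15565 and 12559 counts. A count of 0 allows a share of up to 4.69% in the UV plus vitamin D cells and 6.52% in the control cells, so these few cells set only a loose bound. The summed level of Mki67 and Top2a was 1.03 CPM in those cells of UV plus vitamin D, 7.17 in UV and 1.57 in control. In members it was 383, 450 and 390 CPM, a level set by the rule, which chose them by these 2 genes. The gap between the 2 classes therefore says nothing about free transcripts.

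Most dividing cells were basal by their keratins, while most other keratinocytes were not. The median balance was 96.2% over members in UV plus vitamin D, 96.5% in UV and 95.4% in control, against 0.358%, 0.472% and 1.48% in non-dividing keratinocytes. Basal-weighted cells were 67 of 85 members in UV plus vitamin D (78.8%, interval 68.6 to 86.9%), 84 of 106 in UV (79.2%, 70.3 to 86.5%) and 53 of 71 in control (74.6%, 62.9 to 84.2%). The 3 intervals overlapped, so no difference in balance between libraries was detectable with these numbers of cells. Between 40 and 60% lay 6, 4 and 2 members, which is the number whose class depends on the 50% boundary. Keratins are part of the rule, so the balance is a description of the members.

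The members with suprabasal keratins differed from the basal-weighted ones in the rest of the cell cycle programme. Suprabasal-weighted members numbered 18 in UV plus vitamin D, 22 in UV and 18 in control. The G2 and mitosis genes summed to 592 CPM in the suprabasal-weighted members of UV plus vitamin D, 480 in UV and 532 in control. In basal-weighted members the same sum was 2424, 3369 and 2698 CPM. Set against the 95th percentile of the same sum in non-dividing cells of their library, 11 of 18 suprabasal-weighted members in UV plus vitamin D, 17 of 22 in UV and 15 of 18 in control were at or below it. Of the basal-weighted members 3 of 67, 6 of 84 and 6 of 53 were. Suprabasal-weighted members were also deeper, with median totals of 17044, 13978 and 11822 counts, against 6849, 6532 and 6079 counts in basal-weighted members. After thinning to 2800 counts the expected number of suprabasal-weighted members was 1.37 in UV plus vitamin D, 1.15 in UV and 2.42 in control. In suprabasal-weighted non-dividing keratinocytes the G2 and mitosis genes summed to 250 CPM in UV plus vitamin D, 236 in UV and 206 in control, below the Poisson intervals of the suprabasal-weighted members, which were 508 to 686, 409 to 560 and 443 to 634 CPM. No order of the libraries was taken from the thinned numbers of these members.

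**Figure D2:**
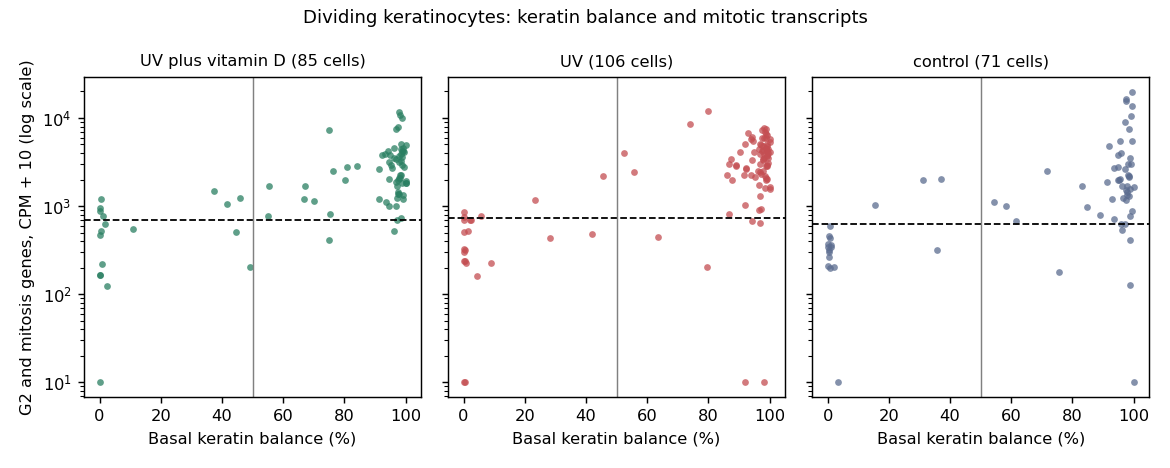
Each point is 1 dividing keratinocyte, with its basal keratin balance (%) on the x axis and the summed level of the G2 and mitosis genes (CPM plus 10, log scale) on the y axis, in the UV plus vitamin D, UV and control libraries. The dashed line is the 95th percentile of non-dividing keratinocytes of the same library and the grey line marks 50% balance; the cloud at the right is basal-weighted and mostly above the dashed line, while 11 of 18, 17 of 22 and 15 of 18 points left of the grey line are at or below it.

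Beyond Mki67 and Top2a, dividing cells carried the transcripts of DNA replication and mitosis in every library. The members were chosen by cell cycle genes, so this comparison with non-dividing keratinocytes describes them and is not a test. A gene was called higher or lower at 1.5-fold on the scale of log2(CPM + 10), and 4204 genes had at least 60 counts over all members. Of these, 12.6% were called higher in dividing cells in all 3 libraries and 5.64% were called lower in all 3. All 16 genes of the S phase list that had enough counts, of 35, were higher in all 3 libraries. The same held for 26 of 28 genes of the G2 and mitosis list, of 43 listed, the others being Ttk, a spindle checkpoint kinase, and Pttg1, securin. Replication histones and chromatin genes were higher for 13 of 15, all but H2afx and Hist1h2bc. The medians of the log2 ratio were 1.48, 1.70 and 1.57 for S phase genes and 2.21, 2.36 and 2.29 for G2 and mitosis genes in UV plus vitamin D, UV and control, beside 0.10, 0.11 and 0.09 over all genes.

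Among the genes with the highest weakest ratio was Ube2c, the ubiquitin-conjugating enzyme of the anaphase-promoting complex, at 235 CPM in dividing cells of UV plus vitamin D, 248 in UV and 180 in control. In non-dividing cells it was at 1.94, 2.19 and 1.29 CPM. Cdk1, the kinase that drives entry into mitosis, was at 112, 115 and 91.5 CPM in dividing cells of those libraries and below 1 CPM in non-dividing cells of each. Pclaf, a partner of the replication clamp PCNA, was at 168 CPM in UV plus vitamin D, 301 in UV and 177 in control dividing cells, and Hist1h1b, a linker histone made in S phase, at 303, 454 and 325 CPM. These genes were thus high in dividing cells of all 3 libraries. In all non-dividing cells Hist1h1b was at 2.18 CPM in UV plus vitamin D, 5.92 in UV and 3.55 in control. In basal-weighted non-dividing cells alone it was at 23.6, 31.4 and 16.3 CPM, and Cdk1 at 6.67, 2.76 and 1.67 CPM. Anln, the contractile ring protein anillin, Spc24, a kinetochore subunit, Stmn1, the microtubule regulator stathmin, and Tubb5, a beta-tubulin, had log2 ratios of dividing over non-dividing cells between 2.94 and 3.84 in each library.

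Promoters of the mitotic genes are shown because these genes were high together in the members, and because the CCAAT box and the cell cycle genes homology region (CHR) are the textbook elements of late cell cycle promoters. The sequences are the 150 bases before the RefSeq transcription start on GRCm38.p6, read 5′ to 3′ on the gene's strand, for Top2a and the 4 genes of the G2 and mitosis list that hold both elements there and had the highest dividing over non-dividing ratios. Capitals mark CCAAT (or ATTGG on the other strand) and TTTGAA (or TTCAAA). Top2a lies at chr11:99024190-99024339 on the minus strand, Ube2c at chr2:164769779-164769928 on the plus strand, Cdk1 at chr10:69352913-69353062 on the minus strand, Cks1b, a subunit of cyclin-dependent kinases, at chr3:89418292-89418441 on the minus strand, and Prc1, which bundles microtubules of the midzone, at chr7:80294326-80294475 on the plus strand.
Top2a: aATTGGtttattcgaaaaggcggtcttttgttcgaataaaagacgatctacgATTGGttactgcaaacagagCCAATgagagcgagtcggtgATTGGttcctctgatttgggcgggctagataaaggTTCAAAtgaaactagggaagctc
Ube2c: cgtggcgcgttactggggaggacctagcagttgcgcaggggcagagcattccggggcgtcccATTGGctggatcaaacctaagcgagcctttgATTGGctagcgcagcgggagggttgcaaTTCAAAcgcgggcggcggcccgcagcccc
Cdk1: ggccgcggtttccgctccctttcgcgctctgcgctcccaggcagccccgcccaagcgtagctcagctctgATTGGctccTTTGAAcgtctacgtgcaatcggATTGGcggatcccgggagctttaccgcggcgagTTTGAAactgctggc
Cks1b: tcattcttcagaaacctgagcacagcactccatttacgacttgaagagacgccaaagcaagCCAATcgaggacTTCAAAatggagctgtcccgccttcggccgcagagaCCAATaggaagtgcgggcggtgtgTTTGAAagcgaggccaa
Prc1: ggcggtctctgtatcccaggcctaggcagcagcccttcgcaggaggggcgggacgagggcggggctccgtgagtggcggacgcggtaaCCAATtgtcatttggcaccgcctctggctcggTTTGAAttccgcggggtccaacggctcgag

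In each of these windows the CHR letters nearest to the start lay closer to it than the nearest CCAAT letters, at 23 bases before the start in Top2a, 29 in Ube2c, 15 in Cdk1, 17 in Cks1b and 30 in Prc1. Over the full 250 bases before the start, 26 of the 28 G2 and mitosis genes had a promoter in the RefSeq table. CCAAT letters stood in 21 of the 26 and CHR letters in 10, and those 10 held both. Of all 27025 genes in the table, 37.5% held CCAAT letters, 18.3% held CHR letters and 6.45% held both, and in the 5 printed windows no CCAAT match overlapped a CHR match. The letters TTTCCCGC or TTTGGCGC, forms of the E2F element on either strand, stood in 0 of the 26 and in 3 of 13 S phase genes, beside 1.51% of all genes. Among the genes tested here, of which 3282 had a promoter in the table, 41.1% held CCAAT letters, 12.6% CHR letters, 5.15% both and 3.14% E2F letters. A match is a description and not a binding site, and these letters may stand elsewhere.

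The contrast with non-dividing cells also held the contrast between layers. Of 14 genes of basal adhesion and basement membrane, 13 were higher in dividing cells in all 3 libraries, Cd151 being the other. Of 26 granular and cornified envelope genes 24 were lower in all 3, the others being Tgm3 and Sprr1b, and of 19 spinous genes 13 were lower. When basal-weighted dividing cells were set against basal-weighted non-dividing cells only, 4.07% of genes were called higher and 0.309% lower in all 3 libraries. The basal adhesion list then had 0 of 14 called either way and the granular list 1 higher and 2 lower of 26. The S phase list kept 15 of 16 higher, without Pola1, and the G2 and mitosis list 26 of 28, again without Ttk and Pttg1. Col17a1, the hemidesmosome collagen, was at 757 CPM in basal-weighted dividing cells of UV plus vitamin D, 488 in UV and 855 in control. In basal-weighted non-dividing cells it was at 745, 689 and 850 CPM. Ivl, the envelope protein involucrin, was at 399 CPM in all dividing cells of UV plus vitamin D, 430 in UV and 346 in control, against 1378, 1391 and 939 CPM in non-dividing cells.

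**Figure D3:**
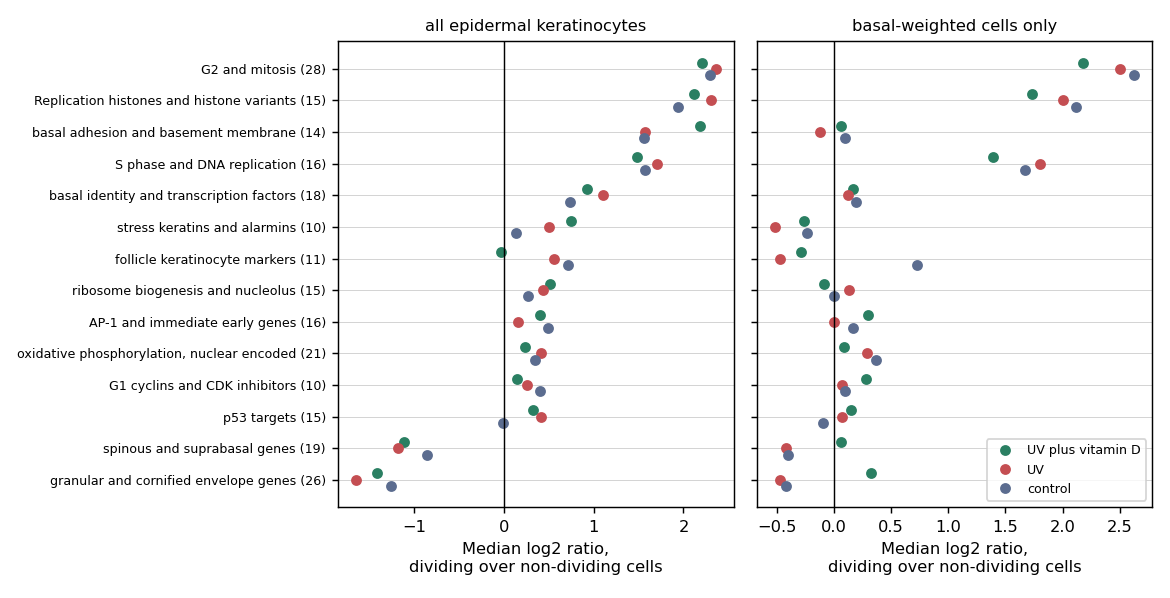
Median log2 ratio of CPM plus 10 in dividing over non-dividing keratinocytes for each gene list with at least 10 tested members (number in brackets), with 1 point per library, for all epidermal keratinocytes on the left and for basal-weighted cells only on the right. The S phase, G2 and mitosis and histone lists stay between 1.39 and 2.63 in the right panel, whereas the basal adhesion medians are between -0.13 and 0.09 there.

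Within the members, the level of mitotic transcripts was highest in UV. The G2 and mitosis list summed to 1821 CPM in UV plus vitamin D (Poisson interval 1734 to 1911), 2358 in UV (2262 to 2457) and 1916 in control (1811 to 2025). The S phase list summed to 926 CPM in UV plus vitamin D (864 to 991), 1123 in UV (1057 to 1191) and 1031 in control (955 to 1112). In the basal-weighted members the S phase sum was 1238 CPM in UV plus vitamin D, 1542 in UV and 1461 in control, with UV and control intervals that overlapped. More counts of G2 and mitosis genes than of S phase genes were seen in 64 of 85 members in UV plus vitamin D, 80 of 106 in UV and 48 of 71 in control. No phase was assigned to single cells.

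**Figure D4:**
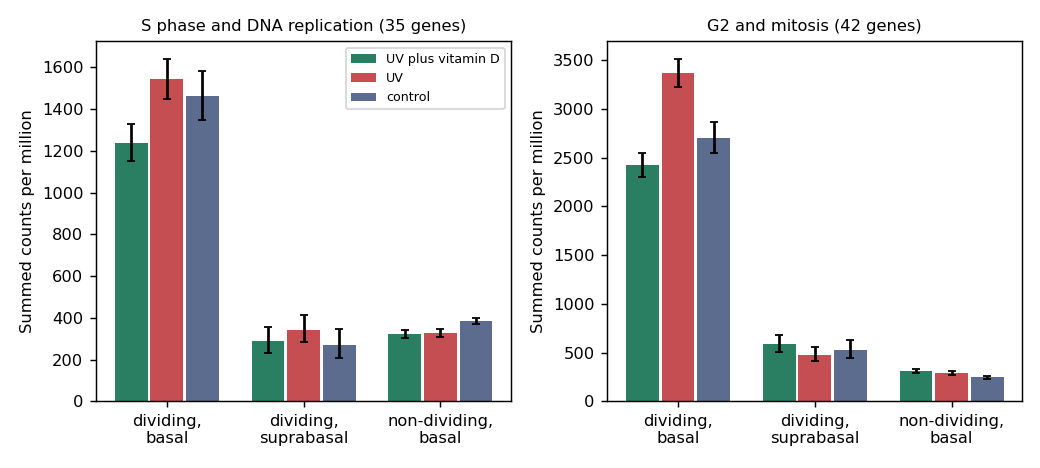
Summed CPM of the S phase list (left, 35 genes) and the G2 and mitosis list (right, 42 genes) in basal-weighted dividing, suprabasal-weighted dividing and basal-weighted non-dividing keratinocytes, with bars for UV plus vitamin D, UV and control and error bars giving 95% Poisson intervals for counting error. Basal-weighted dividing cells stand far above both other classes, with the UV bar highest for G2 and mitosis at 3369 CPM, against 2424 in UV plus vitamin D and 2698 in control.

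In UV against control, dividing keratinocytes had higher Krt6a and stefin A genes, and lower Krt15, Ccnd2 and 6 of 16 immediate early genes. Of the 4204 genes, 6.49% were called higher and 10% lower, and the median log2 ratio over all of them was -0.09. With scaling by median-of-ratios size factors in place of totals, the higher calls made 56.1% of all calls, against 39.3% as reported. A list is therefore read beside that median, and 1 library stood for each group.

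Of 10 stress keratin and alarmin genes with enough counts, 6 were called higher and 1 lower in UV, with a median of 2.17. Of the 6, Krt6b, Stfa1, Stfa3 and Cxcl1 reached the count filter only with UV counts, so their direction was largely set by that filter. Krt6a and BC100530 reached it without them. Krt6a, a keratin of wounded epidermis and of the follicle, was at 444 CPM in UV dividing cells and 61.0 in control, a 7.28-fold ratio (exact interval 5.26 to 10.3). Stfa3, a stefin that inhibits cysteine proteases, was at 707 CPM in UV, against 54.9 in control where 1 cell gave 86.1% of the counts. BC100530, another member of the stefin A family, was at 2552 CPM in UV and 25.9 in control. These genes were also high in the non-dividing keratinocytes of UV, where Krt6a was at 244 CPM and BC100530 at 1881, against 19.3 and 10.7 CPM in control. Members of the stefin, Sprr, Lce1 and histone families are near-identical in sequence, so counts may be split between them and their single values are uncertain. Krt6b had 92 counts in UV, 53.3% of them from 1 cell, and 0 in both other libraries, so it passed the count filter through UV alone. Cxcl1, a neutrophil chemokine, was at 65.4 CPM in UV and 13.7 in control.

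Outside that list, Fhl2, a LIM-domain cofactor, was at 58.1 CPM in UV dividing cells and 4.58 in control, on 56 and 3 counts. With 24 counts in UV plus vitamin D, Fhl2 too reached the count filter only with its UV counts. Tm4sf1, a tetraspanin-like surface protein, was at 219 CPM in UV and 47.3 in control, with 3 cells giving 69.7% of the UV counts. Sprr2a3, a small proline-rich envelope gene, had 87 counts in 21 of 106 UV cells and 0 in control, where up to 3 counts are allowed. Slurp2, a secreted Ly6-family protein, was at 76.8 CPM in UV and 10.7 in control, but at 8.0 CPM in basal-weighted UV members and at 0 in basal-weighted control members. Of 26 granular and cornified envelope genes 8 were called higher and 2 lower, with a median of 0.25. Single cells gave 74.8% of the Lor counts and 83.7% of the Flg2 counts in UV, and Flg, the filaggrin gene, was at 183 CPM in UV and 6.10 in control with 44.3% of the UV counts from 1 cell. Flg had fewer than 60 counts outside UV and reached the count filter only with its UV counts. The same held for Casp14 and Lce1f, also called higher. Krt1 was at 2219 CPM in UV and 1141 in control over all members. In basal-weighted members it was at 429 CPM in UV and 435 in control, a log2 ratio of -0.017.

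The genes lower in UV included a basal keratin, a G1 cyclin and a growth factor binding protein. Krt15, a keratin of resting basal and bulge keratinocytes, was at 631 CPM in UV dividing cells, with counts in 70 of 106 cells, and at 1850 in control, with counts in 59 of 71, which is 2.93-fold lower in UV (interval 2.66 to 3.24). Its log2 ratio was -1.54 both in all members and in basal-weighted members, against -0.90 in non-dividing keratinocytes. Ccnd2, cyclin D2, which couples growth signals to the G1 to S transition, was at 71.6 CPM in UV and 282 in control, 3.94-fold lower (2.97 to 5.28). Of 10 G1 cyclin and CDK inhibitor genes 3 were called lower, Ccnd2 with Ccnd1 and Rb1, and none higher. Rb1 reached the count filter only with control counts. Igfbp3, which binds insulin-like growth factors, was at 184 CPM in UV and 638 in control. Col17a1 was at 329 CPM in UV and 580 in control, and of the 14 basal adhesion genes only Col17a1 and Dst, the dystonin gene of hemidesmosomes, were called, both lower. Non-dividing keratinocytes were also lower in UV for Ccnd2, Igfbp3 and Col17a1. Their log2 ratios were -1.18, -1.82 and -0.79 there, against -1.84, -1.74 and -0.80 in members.

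Immediate early genes answer stress and growth signals within minutes and encode AP-1 transcription factors and feedback regulators. Of 16 on the list 6 were called lower in UV and none higher, with a median of -0.46. Fosb, an AP-1 subunit, was at 80.9 CPM in UV and 268 in control, Atf3, a stress-induced factor, at 362 and 1005 CPM, and Nfkbia, the NF-kappa-B inhibitor, at 1234 and 2549 CPM. Fos was at 279 CPM in UV, 39.8% of it from 1 cell, and 508 in control. In non-dividing keratinocytes 4 of the 16 were called lower and none higher, with a median of -0.02, and Nfkbia and Fosb had log2 ratios of -1.15 and -0.72 there. Nr1d1, which represses clock genes, was at 10.4 CPM in UV and 88.5 in control, and the hours of sampling are not given in the sources used here. With 7 counts in UV plus vitamin D, 10 in UV and 58 in control, Nr1d1 reached the count filter only with its control counts. Adm, the vasodilator adrenomedullin, was at 18.7 CPM in UV and 70.2 in control, Gdpd2, a glycerophosphodiesterase, at 10.4 and 45.8 CPM, and Tnfsf18, a T-cell co-stimulatory ligand, at 8.30 and 97.6 CPM. Adm and Gdpd2 also reached the count filter only with control counts.

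Cell cycle lists had medians nearer to 0. Of 28 G2 and mitosis genes 5 were called higher in UV, among them Cenpa, the centromere histone, at 134 CPM in UV and 73.2 in control, and Tacc3, a spindle protein, at 75.7 and 39.7 CPM. Cks2, which binds CDKs, was at 142 and 74.7 CPM, and Birc5, the survivin of the chromosomal passenger complex, and Kif4, a chromosome-associated kinesin, had log2 ratios of 0.64 and 0.62. The gene called lower was Cenpf, a kinetochore protein of G2, at 34.2 CPM in UV and 76.3 in control. The list median was 0.24. Of 16 S phase genes Rrm2, a subunit of ribonucleotide reductase, and Lig1, the DNA ligase of replication, were called higher and Mcm2, a subunit of the replicative helicase, lower, with a median of 0.00. Rrm2 was at 77.8 CPM in UV and 25.9 in control, and Mcm2 at 18.7 and 48.8 CPM. The shares called, 5 of 28 higher and 2 of 16 higher, stand beside the background of 6.49%. Among the genes called higher, Tacc3, Kif4 and Lig1 reached the count filter only with UV counts. Cenpf and Mcm2, called lower, reached it only with control counts. The direction of these calls was largely set by that filter. Of 15 histone genes 3 were called higher and 1 lower, with a median of 0.20. H2afx, called higher, reached the filter only with UV counts, and Hist1h1a, called lower, only with control counts.

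Other lists had few calls. Of 15 p53 targets Ccng1 and Pmaip1, the BH3-only protein Noxa, were called higher and Gadd45b lower, with a median of 0.00, and Pmaip1 was at 107 CPM in UV and 48.8 in control. Of 19 spinous genes 2 were called higher and 4 lower, with a median of 0.00. Mt4, a metallothionein of stratified epithelia, was among those called lower, at 149 CPM in UV and 305 in control. Of 18 basal identity genes Postn was called higher and Krt15 and Igfbp3 lower, with a median of -0.03. Of 11 follicle keratinocyte genes Krt79, Krt6a, Krt75 and Postn were called higher and Plet1 lower, with a median of 0.48. In non-dividing keratinocytes 8 of the 11 were called higher and 1 lower. Ereg and Errfi1 were called higher and Epgn lower of 5 EGF receptor genes. Of 4 interferon response genes Irf1 and Ifi27l2a were called higher and Ifi202b lower. Ccng1, Krt75, Postn, Irf1 and Ifi27l2a reached the filter only with UV counts.

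In UV plus vitamin D against UV, Krt6a and stefin A genes were lower, and Krt15, Cdkn1a and 4 of 16 immediate early genes were higher. This comparison shares the UV library with the one above, so a value particular to that library enters both with opposite signs. Of the 4204 genes 7.80% were called higher and 4.92% lower, with a median log2 ratio of 0.08. Higher calls made 61.3% of all calls, against 41.0% with median-of-ratios size factors and 50.9% with totals taken without mitochondrial genes and the rRNA gene, which gave 9.26% of member counts in UV plus vitamin D and 12.1% in UV.

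Stress keratins and alarmins had 5 of 10 called lower and 1 higher, with a median of -1.54. Of the 5, Krt6b, Stfa1 and Stfa3 reached the count filter only with UV counts, and Krt6a and BC100530 reached it without them. Krt6a was at 67.5 CPM in UV plus vitamin D and 444 in UV, 6.58-fold lower (interval 5.02 to 8.75). Stfa3 was at 23.2 CPM in UV plus vitamin D and 707 in UV, Stfa1 at 24.3 and 459 CPM, and BC100530 at 57.5 and 2552 CPM. Set against control, Krt6a in UV plus vitamin D was not called, BC100530 was 2.22-fold higher (1.26 to 4.09) and Stfa3 was 2.36-fold lower (1.34 to 4.26), on 52 and 17 counts of BC100530 and on 21 and 36 of Stfa3. For BC100530, 1 cell gave 53.8% of the counts in UV plus vitamin D and 1 cell 58.8% in control. For Stfa3, 1 cell gave 86.1% of the control counts. Both ratios therefore rest on single cells, which the intervals do not cover. Sprr1b, an envelope precursor, was at 74.1 CPM in UV plus vitamin D, 937 in UV and 354 in control, where 3 cells gave 92.2% of it. Sprr2a3 had 0 counts in UV plus vitamin D, 87 in UV and 0 in control, so it also passed the count filter through UV alone. Hist1h2bc, the histone gene noted above as not called higher in dividing than in non-dividing cells of all 3 libraries, was at 68.6 CPM in UV plus vitamin D and 350 in UV.

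Krt15 was at 1490 CPM in UV plus vitamin D, 631 in UV and 1850 in control, a 2.36-fold ratio of UV plus vitamin D over UV (2.15 to 2.60). In non-dividing keratinocytes Krt15 was not higher, with a log2 ratio of -0.27, and in basal-weighted non-dividing cells alone it was at 1970 CPM in UV plus vitamin D and 1602 in UV. Cdkn1a, the CDK inhibitor p21 that p53 induces, was at 2165 CPM in UV plus vitamin D, 1218 in UV and 1768 in control, and it was seen in 85 of 85, 95 of 106 and 69 of 71 members. Its ratio of UV plus vitamin D over UV was 1.78 (1.65 to 1.91), and it was the one gene called of the 10 G1 cyclins and CDK inhibitors. In non-dividing keratinocytes the Cdkn1a ratio was 1.47. Of 15 p53 targets Mdm2, the p53 ubiquitin ligase, Gadd45b and Sfn, the 14-3-3 sigma gene, were called higher and Plk2 lower, with a median of 0.27. Mdm2 was at 141 CPM in UV plus vitamin D, 58.1 in UV and 71.7 in control.

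Claudin 4, a tight junction protein encoded by Cldn4, was at 677 CPM in UV plus vitamin D, 232 in UV and 380 in control. It was thus lowest in UV and highest in UV plus vitamin D. Igfbp3 was at 478 CPM in UV plus vitamin D and 184 in UV, and Ifi202b, a DNA-binding gene of the interferon response, at 2317 and 825 CPM. Among late cornified envelope genes Lce1m was at 217 CPM in UV plus vitamin D, 37.2% of it from 1 cell, and 35.3 in UV, and Lce1l was at 71.9 and 18.7 CPM. Lce1f was at 50.9 CPM in UV plus vitamin D and 37.4 in UV and was not called. Flg, Sprr1b, Casp14, Tgm3 and Sprr2d of the same 26-gene list were called lower and 5 genes higher, which were Lce1a1, Lce1a2, Lce1c, Lce1m and Cdsn, with a median of 0.15. In basal-weighted members only, that median was 1.46, and in cells with at least 1 count of Mki67 plus Top2a it was -0.82, where Lce1a2 and Lce1c also reversed. Flg, Casp14, Tgm3 and Sprr2d reached the count filter only with UV counts. Lce1a1, Lce1a2 and Lce1l reached it only with counts of UV plus vitamin D. The direction of these calls was largely set by that filter. Mt4 was at 321 CPM in UV plus vitamin D and 149 in UV.

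Tslp, an epithelial cytokine that acts on dendritic cells, was at 428 CPM in UV plus vitamin D, 52.9 in UV and 97.6 in control. Of its 387 counts in UV plus vitamin D, 83.5% came from 3 cells, so the value rests on those cells. In basal-weighted non-dividing keratinocytes it was at 251 CPM in UV plus vitamin D, 180 in UV and 279 in control. Ifitm6, an interferon-induced membrane gene, was at 116 CPM in UV plus vitamin D and 11.4 in UV, with 81.9% of the counts in UV plus vitamin D from 3 cells. Trim2, a ubiquitin ligase, was at 87.4 and 23.9 CPM, and Abca5, a lipid transporter, at 38.7 and 7.26 CPM on 35 and 7 counts. Abca5 reached the count filter only with its counts in UV plus vitamin D.

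Several follicle keratinocyte genes were lower in UV plus vitamin D than in UV. Postn, the matrix protein periostin, had 1 count in UV plus vitamin D, 108 in UV and 29 in control, so it reached the count filter only with UV counts. Plin2, which coats lipid droplets, was at 7.75 CPM in UV plus vitamin D, 167 in UV and 145 in control, where 1 cell gave 85.3% of it. Of 11 follicle keratinocyte genes 7 were called lower and 1, Plet1, higher, with a median of -0.98. Krt75, a keratin of the companion layer and one of the 7, had 60 counts in UV, 93.3% of them from 1 cell, and 0 in both other libraries, so it passed the count filter through UV alone and its direction was fixed by that filter. In non-dividing keratinocytes 6 of the 11 were called lower and 1 higher, with a median of -0.60. At least 2 counts over Krt75, Postn, Lhx2, Lgr5, Cd34, Shh and Fst, which mark the bulge and the outer root sheath, were seen in 6 of 85 members in UV plus vitamin D (7.06%), 22 of 106 in UV (20.8%) and 8 of 71 in control (11.3%), against 1.82%, 6.31% and 2.25% of non-dividing keratinocytes. The condition on 6 hair genes in the rule does not remove such cells. Leaving them out left the log2 ratio of shares at 2.22 for UV against control and -1.29 for UV plus vitamin D against UV, beside 2.29 and -1.45 with them, and the stress list medians at 2.27 and -1.68.

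Immediate early genes had 4 of 16 called higher in UV plus vitamin D, which were Fosb, Fosl1, Junb and Zfp36, and none lower, with a median of 0.37. Fosl1, an AP-1 subunit, was at 818 CPM in UV plus vitamin D, 433 in UV and 461 in control. Of 15 ribosome biogenesis genes Rrs1 and Nolc1 were called higher and none lower, with a median of 0.38. For UV against control the same list had 4 called lower and none higher, with a median of -0.40, the largest being Rrs1, a factor of large subunit assembly, at 11.4 CPM in UV and 38.1 in control. Without the counts of the higher library, Rrs1 missed the count filter in both comparisons. The basal adhesion list had Col17a1 and Itga2, an integrin subunit, called higher in UV plus vitamin D, and Col17a1 was at 549 CPM in UV plus vitamin D and 329 in UV.

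Mitotic genes were lower in UV plus vitamin D than in UV for 5 of 28, namely Ccnb1, Cenpa, Kif23, Ckap2 and Tacc3, and higher for none, with a median of -0.28. Of the 5, Ccnb1, Kif23, Ckap2 and Tacc3 reached the count filter only with UV counts, so their direction was largely set by that filter. Cenpa reached it without them. Cenpa was at 53.1 CPM in UV plus vitamin D and 134 in UV, and Tacc3 at 32.1 and 75.7 CPM. Ccnb1, cyclin B1, was at 24.3 CPM in UV plus vitamin D and 42.5 in UV on 22 and 41 counts. Of the S phase genes Tyms, thymidylate synthase, Tk1, thymidine kinase, and Hells, a chromatin remodeller, were lower and Mcm2 higher. Tk1 and Hells also reached the filter only with UV counts, and Mcm2 only with those of UV plus vitamin D. Pcna, the replication clamp, was at 176 CPM in UV plus vitamin D, 183 in UV and 139 in control.

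Vdr, the vitamin D receptor, was at 59.7 CPM in UV plus vitamin D, 38.4 in UV and 77.8 in control, on 54, 37 and 51 counts. Only 3 of 10 genes on the vitamin D list had enough counts, Vdr, Dhcr7 and Cst6, and none was called in UV plus vitamin D against UV. DNA repair genes were too few to describe, with 2 of 28 past the filter. Of 4 interferon response genes past the filter Ifi202b was called higher and Ifi27l2a lower in UV plus vitamin D against UV. Ereg, a ligand of the EGF receptor, was at 215 CPM in UV plus vitamin D and 99.6 in UV, with 41.2% and 34.4% of the counts from 1 cell. Epgn, another ligand of that receptor, was at 341 CPM in UV plus vitamin D and 191 in UV. In all non-dividing keratinocytes Epgn had the opposite sign, at 43.4 CPM in UV plus vitamin D and 129 in UV. In basal-weighted non-dividing cells alone it was at 248 and 263 CPM, a log2 ratio of -0.08. Basal-weighted members were at 435 and 247 CPM, and the difference between the cell classes was not tested. Oxidative phosphorylation had 0 of 21 called in that comparison and 2 of 21 called higher in UV against control, which were Ndufa1 and Cox5a.

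UV plus vitamin D was also set against control, a comparison that shares a library with each of those above. Of the 4204 genes 5.61% were called higher and 6.18% lower, with a median log2 ratio of -0.01. Stress keratins and alarmins had 3 of 10 called higher and 1 lower with a median of 0.18, and ribosome biogenesis genes had 0 of 15 called with a median of 0.01. Ccnd2 was at 101 CPM in UV plus vitamin D and 282 in control, Atf3 at 458 and 1005 CPM, and Nr1d1 at 7.75 and 88.5 CPM. These 3 were lower than control in both irradiated libraries, with 1 library each. Nr1d1 reached the count filter only with its control counts, so its direction was largely set by that filter.

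**Figure D5:**
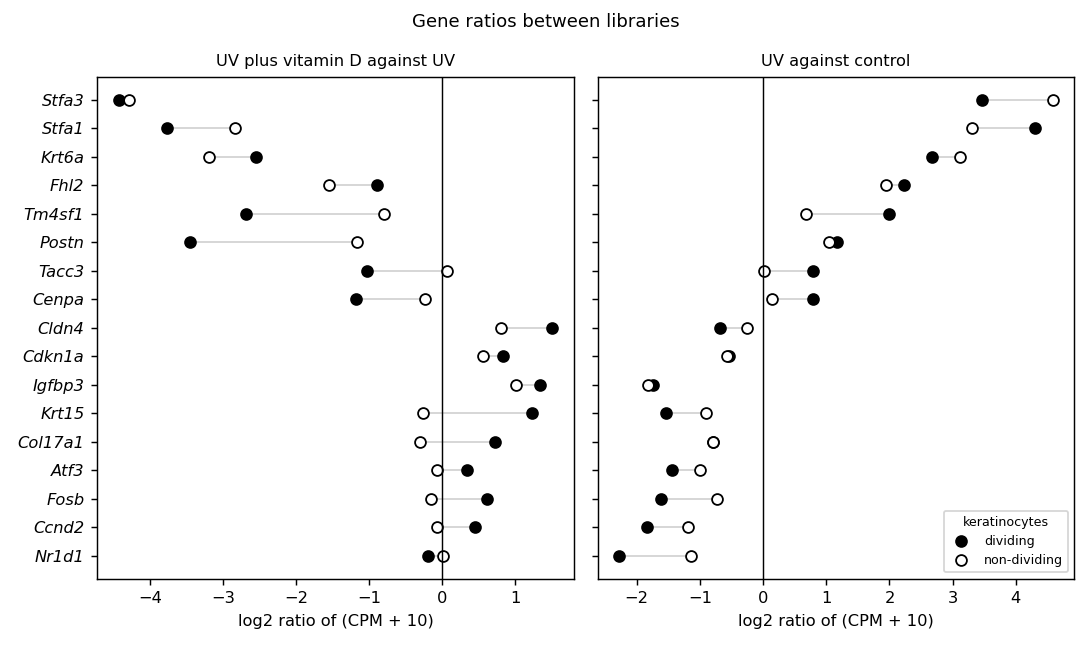
Log2 ratio of CPM plus 10 for 17 genes named in the text, in dividing (filled) and non-dividing (open) epidermal keratinocytes, for UV plus vitamin D against UV on the left and UV against control on the right, with no error bars because each group is 1 library. The stefin genes and Krt6a lie far from 0 in both kinds of cell with opposite signs in the panels, which share the UV library, and Krt15 in the left panel is at 1.23 in dividing and -0.27 in non-dividing cells.

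Transcripts of other lineages were present in many members. At least 1 count of a macrophage, dendritic or Langerhans cell marker was seen in 32 of 85 members in UV plus vitamin D, 74 of 106 in UV and 25 of 71 in control. For T and NK cell markers the numbers were 38, 38 and 29, for sebocyte markers 46, 60 and 37, and for fibroblast markers 15, 44 and 6. Their part in the differences between libraries was not tested. Of 10 T and NK cell markers Cd8a and Cd4 were at 0 in all 3 libraries, and Trbc2 gave 72 of 80 counts in UV plus vitamin D, 76 of 92 in UV and 54 of 62 in control. Fibroblast markers summed to 18.8 CPM in UV plus vitamin D, 76.8 in UV and 10.7 in control, with Lum and Pdgfrb at 0 in all 3. Hair matrix and inner root sheath markers, limited by the rule, summed to 13, 23 and 5 counts. Endothelial markers summed to 1 count in UV plus vitamin D, 8 in UV and 0 in control. Macrophage, dendritic and Langerhans cell markers summed to 238 CPM in UV plus vitamin D, 344 in UV and 572 in control, and 1 cell in each library gave 158 of 215, 162 of 332 and 340 of 375 counts. Melanocyte markers summed to 26.6 CPM in UV plus vitamin D, 645 in UV and 58.0 in control, with 567 of 622 UV counts from 1 cell. Sebocyte markers summed to 139 CPM in UV plus vitamin D, 410 in UV and 421 in control, with 11 of 126, 155 of 395 and 187 of 276 counts from 1 cell. Members with at least 1% of counts from 1 such list numbered 1 in UV plus vitamin D, 2 in UV and 2 in control. Without them the log2 ratio of shares was 2.31 for UV against control and -1.49 for UV plus vitamin D against UV. Conversely, the UV library held 379 barcodes with at least 2 counts of Mki67 plus Top2a, of which 273 were not members, against 16 of 101 in UV plus vitamin D and 13 of 84 in control.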

How the data were processed

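Whole-skin single cells of 3 libraries, 1 per group by the treatment in the labels, were analysed. The deposited files hold counts, whole numbers for each gene in each barcode. FastQC, fastp, STAR and featureCounts are listed in the submitters' processing notes without versions, beside the human build GRCh38, although the gene symbols are those of the mouse. The sources used here do not say if molecules or reads were counted, and with reads the intervals would be too narrow.

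Members and non-dividing keratinocytes were found by the stated rule, and counts were summed per library and class. Ratios used log2(CPM + 10) for the 4204 genes with at least 60 counts over all members, and the plus 10 understates changes of low genes. Fold intervals are exact conditional binomial and cover counting error only. The calculation was tested on simulated data. Thinned shares are exact hypergeometric expectations. Their intervals, and those of their ratios, apply the binomial formulas to expected numbers of cells and so are approximate. With 1 library per group no test across animals was made. Doublets had not been removed here.

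The members and the 18 gene lists were chosen with earlier results of these data known. Named genes were the 8 highest and 8 lowest ratios of each comparison with intervals wholly beyond 1.5-fold and no cell giving over 50% of the counts in the higher library, the 10 highest and lowest of dividing against non-dividing cells by the weakest library, up to 4 per list, and 13 fixed genes, leaving mitochondrial, ribosomal protein, haemoglobin and unnamed genes out of the ranked sets. Other list members were named where a count of 5 or fewer called for it, after their values were seen. A gene that met the rule is not reported here. Promoter letters were searched in RefSeq sequences of GRCm38.p6, which may not be the authors' build. Python 3.11.15 with numpy 2.4.6, scipy 1.17.1, pandas 2.3.3 and matplotlib 3.10.9 was used.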

Additional observations from a re-analysis of the deposited data

How the results depend on the processing

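No paired analysis was possible because each group had 1 library and the labels give no replicate numbers, and no replicate could be left out. Alternatives on other lineages, bulge and outer root sheath cells, basal-weighted cells only and totals without rRNA and mitochondrial genes were chosen after seeing the data. The log2 ratio of shares for UV against control was 2.29, and it was 1.59 with 1 count of Mki67 plus Top2a, 1.46 over all barcodes and 0.57 with at least 4 counts over the G2 and mitosis list without thinning. For UV plus vitamin D against UV it was -1.45, with -0.67 over all barcodes and 0.16, a reversed direction, with the G2 and mitosis threshold. That threshold was reached by 1454, 666 and 1333 keratinocytes in UV plus vitamin D, UV and control, of which 1296, 522 and 1194 had no count of Mki67 or Top2a. Basal-weighted members made 90.2%, 97.1% and 92.3% in UV plus vitamin D, UV and control with at least 3 counts, and 46.7%, 57.2% and 45.0% with at least 1.

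With at least 3 counts the UV plus vitamin D against UV medians were -0.53 for S phase, -0.55 for G2 and mitosis and 1.21 for granular genes. With at least 1 count the granular medians were 0.94 for UV against control and -0.82 for UV plus vitamin D against UV, the G2 and mitosis median was 0.60 for UV against control, and 280 genes were lower in UV. In basal-weighted cells only the granular median of UV plus vitamin D against UV was 1.46, and 163 and 7 genes were higher and lower in dividing than in non-dividing cells when the count filter was applied to those cells, against 171 and 13 with the filter as reported. Against 273 higher and 421 lower genes in UV against control, and 328 higher and 207 lower in UV plus vitamin D against UV, no filter gave 827, 912, 710 and 738, and a filter of 200 counts gave 91, 125, 117 and 54. That filter left 220 higher and 135 lower genes for dividing cells, against 530 and 237. A pseudocount of 1 gave 504 higher for UV plus vitamin D against UV, and median-of-ratios factors gave 273 lower for UV against control and 206 higher for UV plus vitamin D against UV. The 2 filters change how many genes are tested; elsewhere the cause was not tested.

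Single genes that reversed were Ifitm6 for UV against control (0.45 with at least 3 counts, 0.26 in basal-weighted cells), Krt1 for UV plus vitamin D against UV (0.11 and 0.020 in the same settings) and for UV against control (-0.017 in basal-weighted cells), and Slc5a8 for UV plus vitamin D against UV (0.88 and 0.33). With at least 1 count Ereg (-0.075), Lce1a2 (-0.90) and Lce1c (-1.19) reversed for UV plus vitamin D against UV, and Flg2 (-0.72) reversed for UV against control at a keratin floor of 1%. Of the other values for named genes 2990 moved by less than their counting interval or kept their call and 359 moved further.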
